A study of Mus musculus with 629 samples.

Results

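The constitutive proteasome subunits are the genes for the protein-degrading barrel of the cell and for the caps that feed it. All genes with the symbols Psma, Psmb, Psmc or Psmd followed by a number were taken, without the immunoproteasome genes Psmb8, Psmb9 and Psmb10 and without pseudogenes. This gave 36 of the 53546 genes in the table. The study sequenced single cells of adult C57BL/6 mouse brain by SMART-seq2, a method that reads full-length polyadenylated RNA of cells sorted singly into plates. All mice carried the reporter SM22-Cre;Rosa26-stop-tdTomato, in which the promoter of the smooth muscle gene SM22 drives Cre. The mice were knockout (KO), heterozygous (Het) or wild type (WT) for Notch3, a Notch receptor best known from the mural cells of vessels. Of 629 cells, 400 were labelled macrophages (119 KO, 70 Het and 211 WT) and 215 microglia (78 KO, 58 Het and 79 WT).

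No label names an animal, and each plate held cells of 1 or 2 genotypes. Cells of 1 genotype, plate and cell type were therefore summed into a pool, which gave 8 pools for each cell type: KO on plates 060s and 524s, Het on plates 056s, 524s and 529s, and WT on plates 059s, 529s and 530s. Pools may share animals, so each genotype within a cell type counts as 1 sample, no p-value is given, and the spread between pools may be technical. Plate and genotype cannot be told apart outside plates 524s and 529s. Levels are in CPM, counts scaled to a total of 1000000, over all gene counts except the spike-in transcripts and the ribosomal RNA gene Rn18s. Rn18s alone took between 16.4% and 56.4% of a pool's counts. Pools held between 2470852 and 35356083 such counts, and the median cell held 197196 counts among macrophages and 246554 among microglia.

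The labels of the cell types were checked against their markers. Of 14 genes known to mark perivascular macrophages, 12 were higher in macrophages than in microglia of the same plate and genotype in all 8 pairs of pools, and 11 of 12 microglia markers were lower in all 8. Summed microglia markers still ran between 3901 and 11349 CPM in macrophage pools, against 30896 to 59469 CPM in microglia pools. Summed macrophage markers ran between 10260.5 and 19634.7 CPM in microglia pools, against 30776 to 41901 CPM in macrophage pools. Notch3 could not check the genotype labels: in macrophages it had 2 counts in KO cells, 0 in Het cells and 77 in WT cells, the last all in 1 cell, and in microglia it had 1 count in each genotype.

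Proteasomes degrade proteins tagged with ubiquitin. The 20S core is a barrel of stacked alpha and beta rings: the alpha subunits (Psma genes) form the gate, and the beta subunits (Psmb genes) include the catalytic Psmb5, Psmb6 and Psmb7. The 19S regulatory particle caps the core. Its base holds the ATPases (Psmc genes) that unfold substrates and large non-ATPase subunits, and its lid removes ubiquitin. In macrophages and microglia the core also makes peptides for presentation on MHC class I, and interferon-induced subunits can take the place of the catalytic ones. Here 14 genes belong to the core, 17 to the regulatory particle, 3 (Psmd5, Psmd9 and Psmd10) to chaperones that help build its base, and 2 (Psma8 and Psmb11) to the core variants of testis and thymus.

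The subunit genes were expressed in both cell types at close to the same summed level. In macrophages the 36 genes summed to 2232 and 2009 CPM in the KO pools of plates 060s and 524s, 2574, 2355 and 2186 CPM in the Het pools of plates 056s, 524s and 529s, and 3239, 2332 and 2679 CPM in the WT pools of plates 059s, 529s and 530s. In microglia the sums were 2234 and 2515 CPM in the KO pools, 2597, 2467 and 2479 CPM in the Het pools, and 2871, 2608 and 2444 CPM in the WT pools. The highest pool of each cell type was WT cells of plate 059s, and the lowest macrophage pool was KO cells of plate 524s. Macrophage and microglia pools overlapped.

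A gene counted as measured at 20 CPM or more with counts in at least 25% of cells within the same genotype, which 32 of the 36 genes did in either cell type. Psmb3 and Psmb5 stayed under this level, and their values below are descriptions. Psma8, the alpha subunit of the testis proteasome, reached at most 4.81 CPM in a macrophage pool and 10.3 CPM in a microglia pool. Psmb11, the beta subunit of the thymus proteasome, had counts in 3 of the 8 macrophage pools and in none of the microglia pools. Psma8 was highest in KO microglia, with 7.33 and 10.3 CPM on plates 060s and 524s, and had counts in 5.13% of these cells, with 64.2% of the counts in 1 cell.

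**Figure D1:**
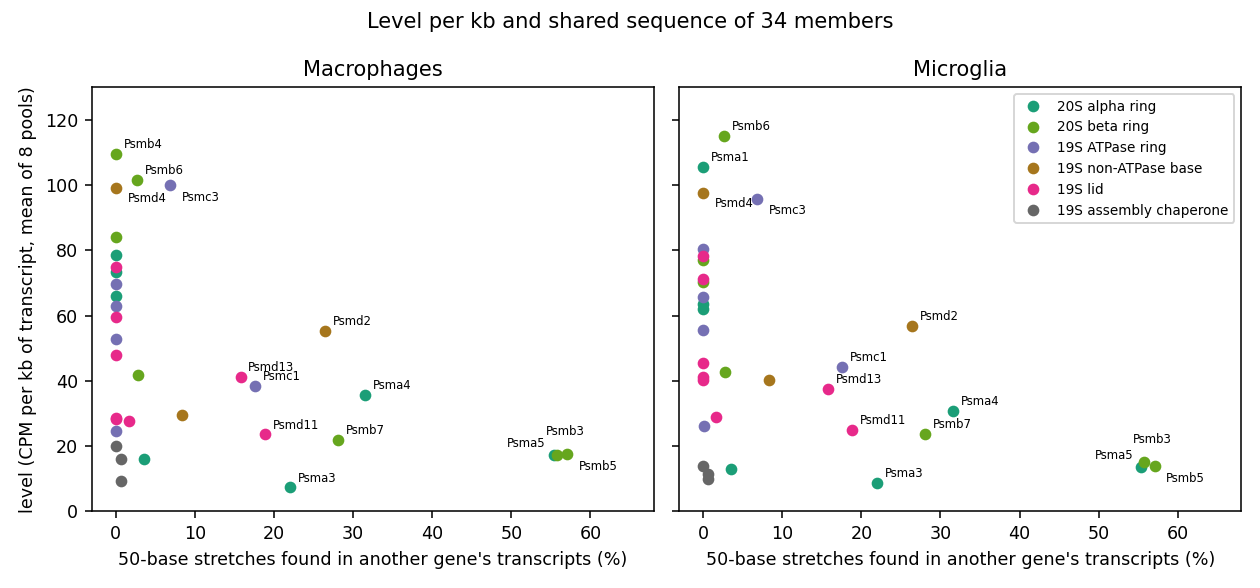
Level per kb of transcript (CPM per kb, mean of 8 pools) against the share of 50-base stretches of the transcript that also occur in another gene's transcripts (%), for 34 genes in macrophages (left) and microglia (right). Each point is a gene, coloured by particle. The core genes Psma5, Psmb3 and Psmb5, at over 55% shared, lie below 18 CPM per kb, and the highest genes share under 7%.

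To compare genes with each other, levels were divided by transcript length. Per kb, Psmb4, a beta subunit without an active site, was highest in macrophages, at 109.5 ± 34.6 CPM per kb (SD, n = 8 pools), followed by the caspase-like catalytic subunit Psmb6 at 101.6 ± 42.2 and the ATPase Psmc3 at 99.9 ± 23.5. In microglia Psmb6 led with 115.1 ± 45.6 CPM per kb, ahead of the alpha subunit Psma1 with 105.6 ± 42.3. These leading genes do not differ beyond their spread over pools. In the regulatory particle Psmc3 was highest and the lid subunit Psmd11 lowest in macrophages, with 23.6 ± 3.71 CPM per kb for Psmd11. The order of the 34 genes was nearly the same in both cell types (Spearman's rho 0.96 across genes, which share libraries and transcript lengths).

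Subunits of one core are present in equal numbers in the protein complex, but their transcripts spanned a 15.0-fold range of level per kb in macrophages and a 13.3-fold range in microglia. The lowest was the alpha subunit Psma3, at 7.30 ± 2.40 CPM per kb in macrophages and 8.67 ± 2.60 in microglia, on a transcript of 2846 bases with only 765 coding bases. Per kb of coding sequence the lowest was instead the chymotrypsin-like catalytic subunit Psmb5, at 19.8 CPM per coding kb in macrophages and 15.7 in microglia. Among the 14 core genes, low levels went with sequence shared with other genes, mostly processed pseudogenes. The 6 core genes with more than 20% of their 50-base stretches found elsewhere (Psma3, Psma4, Psma5, Psmb3, Psmb5 and Psmb7) had a median of 17.4 CPM per kb in macrophages and 14.5 in microglia. The other 8 had medians of 75.8 in macrophages and 66.8 in microglia. Spearman's rho between level per kb and shared sequence was -0.74 in macrophages and -0.74 in microglia over these 14 genes, and -0.87 and -0.85 per coding kb. Among the 17 regulatory particle genes rho was -0.35 in macrophages and -0.46 in microglia, and Psmd2, the 1 gene of these with over 20% shared, had 55.2 CPM per kb in macrophages, above the median of 44.5 of the other 16.

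The shares were 57.1% for Psmb5, 55.8% for Psmb3, 55.4% for Psma5, 31.5% for Psma4, 28.1% for Psmb7 and 22.0% for Psma3. Psmb7 shares its stretches with Nek6, an overlapping gene on the other strand, rather than with a pseudogene. The copies took few counts of their own: Gm3375, which shares sequence with Psmb5, had 184 counts in macrophages, against 1680 for Psmb5. Gm14227, which shares sequence with Psmb3, had 110 counts, against 1570 for Psmb3. Dividing by the length that is not shared left the range of the core genes at 11.7-fold in macrophages and 10.6-fold in microglia and rho at -0.69 in macrophages and -0.70 in microglia. The rule used for reads that fit several places is not given in the sources used here, and its part in the low values was not tested.

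**Figure D2:**
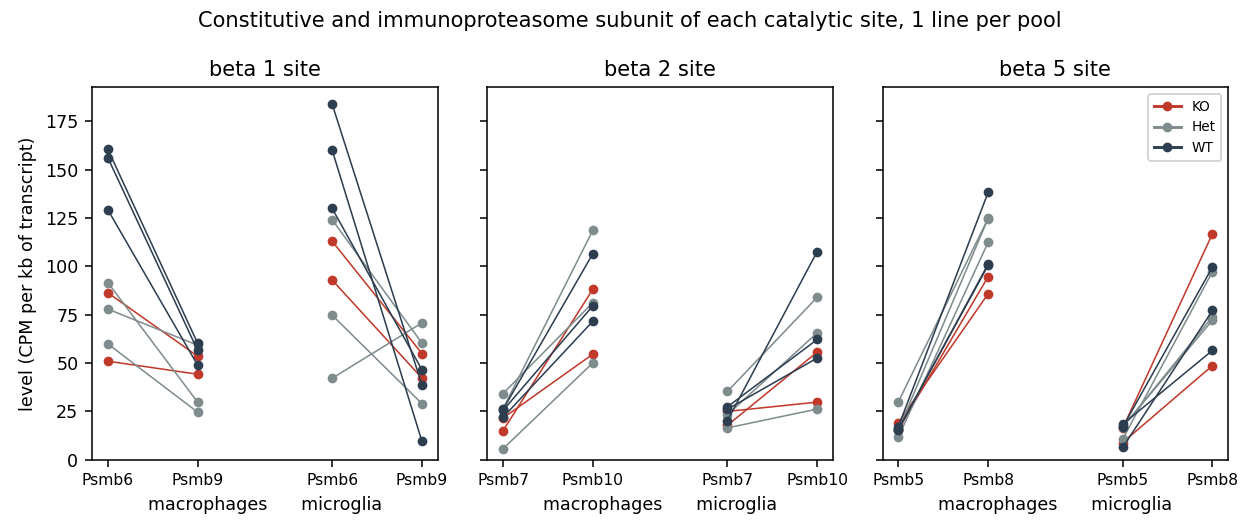
Level per kb of transcript (CPM per kb) of each constitutive catalytic subunit and of the immunoproteasome subunit that takes its place, with 1 line per pool, macrophages left and microglia right in each panel, coloured by genotype. Psmb6 lies above Psmb9 in 8 of 8 macrophage pools, while Psmb7 lies below Psmb10 and Psmb5 below Psmb8 in all 8 pools of both cell types.

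The catalytic subunits differed in how they stood to their interferon-induced counterparts. Psmb6 was higher than its counterpart Psmb9, with 101.6 ± 42.2 against 47.1 ± 13.5 CPM per kb in macrophages and 115.1 ± 45.6 against 43.9 ± 19.1 in microglia (SD, n = 8 pools). The log2 ratio of Psmb6 over Psmb9 was 1.04 ± 0.54 in macrophages, above 0 in every pool, and 1.43 ± 1.31 in microglia, below 0 in 1 pool. Psmb7, the trypsin-like subunit, was lower than its counterpart Psmb10, with 22.0 ± 8.56 against 81.2 ± 23.5 CPM per kb in macrophages and 23.9 ± 6.03 against 60.4 ± 26.8 in microglia. Its log2 ratio was -1.92 ± 0.59 in macrophages and -1.21 ± 0.64 in microglia, below 0 in all 8 pools of each. Psmb5 was lower than its counterpart Psmb8, with 17.4 ± 5.40 against 110.2 ± 17.8 CPM per kb in macrophages and 13.8 ± 4.55 against 80.2 ± 22.9 in microglia, a log2 ratio of -2.62 ± 0.40 and -2.48 ± 0.60.

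These ratios carry the shared sequence described above. With lengths reduced to the part not shared, the log2 ratio was 0.94 in macrophages and 1.22 in microglia for Psmb6 over Psmb9. It was -1.38 and -0.85 for Psmb7 over Psmb10, and -1.50 and -1.38 for Psmb5 over Psmb8. With coding lengths the ratio of Psmb6 over Psmb9 shrank to 0.23 in macrophages and 0.50 in microglia, while the others kept their sign. By genotype, the KO pools lay inside the range of the control pools for 4 of the 6 ratios, both of Psmb5 over Psmb8 among them. Outside it were 1 KO macrophage pool for Psmb6 over Psmb9, at 0.20 against 0.39 or more in control pools, and 1 KO microglia pool for Psmb7 over Psmb10, at -0.25 against -0.64 or less in control pools.

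The transcription factor Nfe2l1, known to raise proteasome genes when the proteasome is blocked, binds antioxidant response elements together with small Maf proteins. Their core, written TGACNNNGC, was searched on both strands in the 250 bases before the start of each gene (RefSeq, GRCm38.p6), for the 29 genes with an entry. It occurred in 5 of 29 (17.2%), against 11.5% of 27025 genes: Psmb5, Psmb6, Psmc6, Psmd9 and Psmd12. The promoters of the catalytic Psmb5 and Psmb6 are shown in full, and the other elements with up to 10 bases on either side. All are written along the gene's strand with the element in capitals. Psmb5 is at chr14:54617996-54618245 on the minus strand, Psmb6 at chr11:70525107-70525356, Psmc6 at chr14:45329587-45329615, Psmd9 at chr5:123228149-123228177 and Psmd12 at chr11:107479278-107479299, these 4 on the plus strand.
Psmb5: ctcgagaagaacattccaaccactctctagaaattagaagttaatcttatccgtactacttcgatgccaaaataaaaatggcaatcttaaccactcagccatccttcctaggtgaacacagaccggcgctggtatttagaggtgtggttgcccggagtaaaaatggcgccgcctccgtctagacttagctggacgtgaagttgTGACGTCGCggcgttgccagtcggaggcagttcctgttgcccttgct
Psmb6: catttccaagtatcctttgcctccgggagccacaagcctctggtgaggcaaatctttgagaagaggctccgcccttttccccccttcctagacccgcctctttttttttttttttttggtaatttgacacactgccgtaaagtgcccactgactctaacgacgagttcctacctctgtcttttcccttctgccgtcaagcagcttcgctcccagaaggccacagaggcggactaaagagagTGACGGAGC
Psmc6: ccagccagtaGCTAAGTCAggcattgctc
Psmd9: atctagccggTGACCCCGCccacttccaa
Psmd12: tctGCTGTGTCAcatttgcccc

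In Psmb5 the element runs from 47 to 39 bases before the start, and in Psmb6 it ends at the last base before the start. In Psmd9 it runs from 31 to 23 bases before the start. In Psmc6 and Psmd12 the letters read as the element on the opposite strand. CCAAT was found in 12 of the 29 promoters (41.4%), against 37.5% of all genes, and the GC box GGGCGG in 17 (58.6%), against 35.4%. Psmb6, Psmc6, Psmd9 and Psmd12 hold both the element and a GC box, and Psmb5 holds the element without a GC box. A match describes the letters only.

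The 5 genes with the element did not move alike. Set against WT and then Het, the log2 ratios of KO macrophages were 0.04 and 0.03 for Psmb5, -0.999 and -0.20 for Psmb6, 0.20 and -0.20 for Psmc6, -0.29 and -0.27 for Psmd9, and 0.09 and close to 0 for Psmd12. Nfe2l1 itself was higher in macrophages than in microglia in all 8 pairs, with a mean log2 ratio of 1.24 ± 1.00 (SD, n = 8 pairs), and was the 1 called of the 5 measured genes of the transcription control list. Among all measured genes 3.96% were called higher in macrophages. Nfe2l2, the related factor of the oxidative stress response, had a ratio of 0.05 ± 0.58.

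No subunit gene was called different between macrophages and microglia. A gene was called where its log2 ratio, taken on CPM + 1, had the same sign in all 8 pairs of pools of the same genotype and plate and its mean passed 1.5-fold. Of the 32 measured genes 0 were higher and 0 lower in macrophages, while among all 6987 measured genes 3.96% were higher and 5.95% lower. The median of the 32 ratios was -0.07, against -0.05 for all measured genes, and they ran from -0.53 to 0.70. Without the fold limit the counts were still 0 and 0, against 5.05% and 6.51% of all measured genes.

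**Figure D3:**
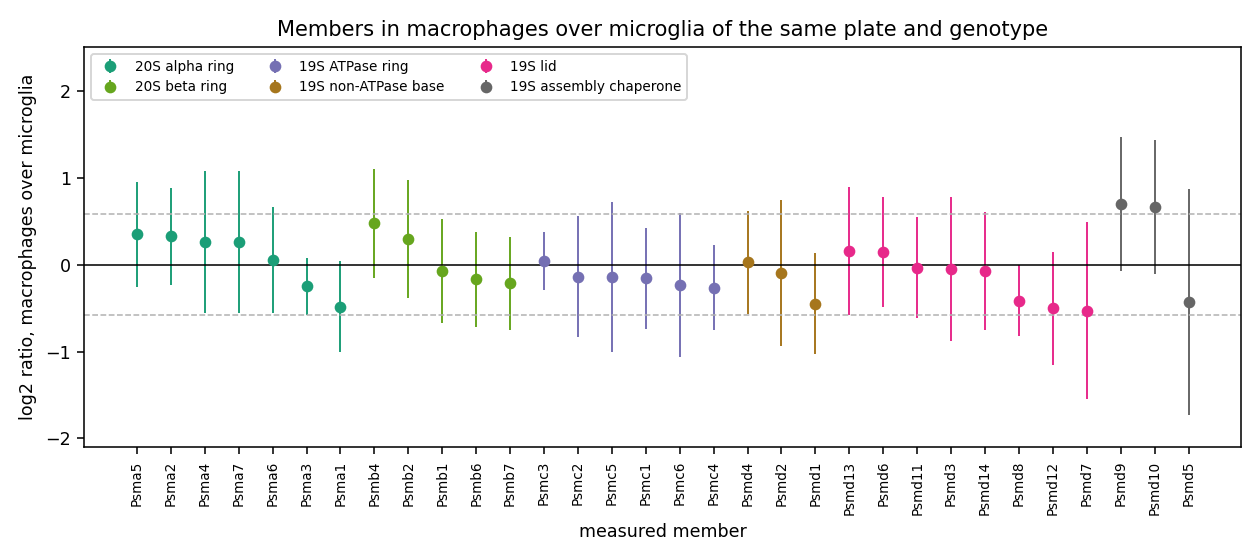
Mean log2 ratio of macrophages over microglia for the 32 measured genes, grouped by particle, with the SD over 8 pairs of pools as bars and dashed lines at 1.5-fold. The means lie between -0.53 (Psmd7) and 0.70 (Psmd9), and every bar crosses 0.

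The 2 largest ratios belonged to base chaperones. Psmd9 had 45.0 and 33.2 CPM in KO, 53.3, 25.9 and 41.3 in Het and 50.8, 26.1 and 55.3 CPM in WT macrophage pools. In microglia it had 30.2 and 36.0 CPM in KO, 9.37, 21.7 and 30.9 in Het and 37.7, 18.1 and 23.9 CPM in WT pools. Macrophages were higher in 7 of 8 pairs, with a mean log2 ratio of 0.70 ± 0.77. Psmd10, known as gankyrin, had a ratio of 0.67 ± 0.77, and the beta subunit Psmb4 one of 0.48 ± 0.63. The lowest were the lid subunits Psmd7, with -0.53 ± 1.02, and Psmd12, with -0.50 ± 0.65, and the alpha subunit Psma1, with -0.48 ± 0.53 and macrophages higher in 1 of 8 pairs. Each of these 6 spreads exceeded the ratio itself. Psmd9 was called higher without plate 524s, and Psmb4 without plate 529s, where 6.27% and 6.01% of all measured genes were called higher.

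The number of subunit genes seen in a cell did differ. A macrophage had counts for a median of 17 of the 36 genes (range 3 to 31) and a microglial cell for 23 (range 6 to 34). With each cell thinned to 50000 counts the medians were 14 in 375 macrophages and 19 in 205 microglia, with 25 macrophages and 10 microglia too shallow to enter. The summed level per cell was close, at medians of 2466 CPM for macrophages and 2389 CPM for microglia. No cell lacked counts for every subunit gene. The median number of all genes detected per cell ran from 2960 to 4634 in macrophage pools and from 3808 to 5730 in microglia pools, so the detection of genes in general was higher in microglia on the whole, with overlap.

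**Figure D4:**
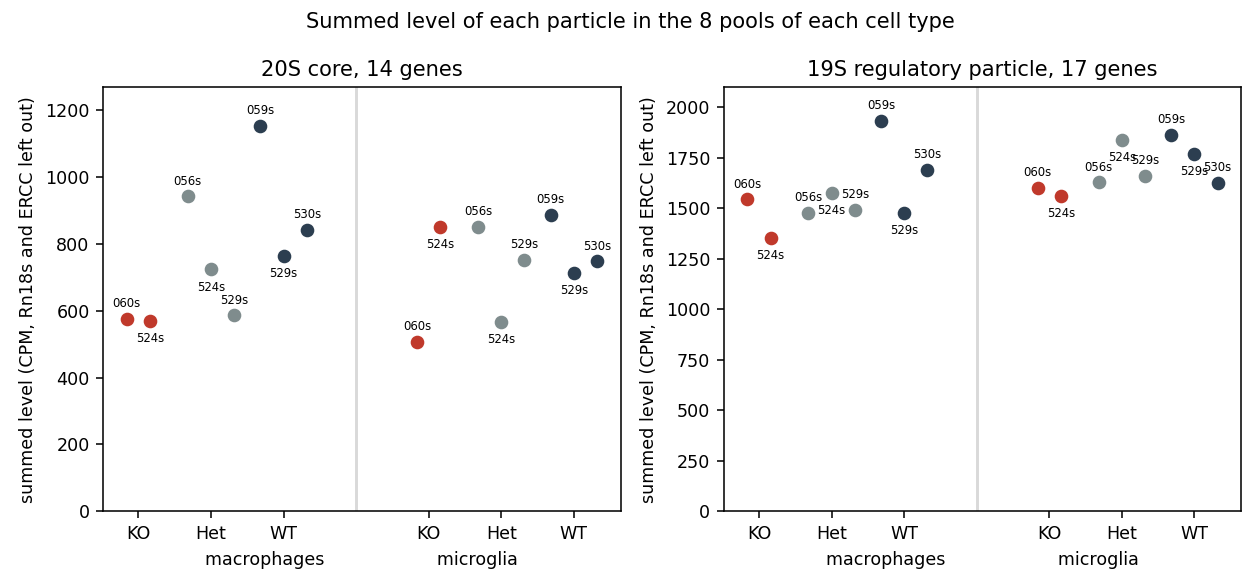
Summed level (CPM) of the 14 core genes (left) and the 17 regulatory particle genes (right) in each pool, by cell type and genotype and labelled with the plate. KO macrophage pools have the lowest core levels of the macrophages, at 575.6 and 570.0 CPM against 586.3 to 1153.5 CPM in controls, while the KO microglia pools lie far apart, at 507.3 and 851.2 CPM.

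In KO macrophages the measured core genes were all below both controls in the summed counts, while the regulatory particle genes were mixed. Between KO and Het cells of plate 524s, the only plate with both, the core genes were mixed as well. The 14 core genes summed to 575.6 and 570.0 CPM in the KO pools of plates 060s and 524s, 942.9, 724.0 and 586.3 CPM in the Het pools and 1153.5, 764.0 and 843.1 CPM in the WT pools. The KO pools lay below every control pool, but close to the lowest of them, Het cells of plate 529s. With counts summed over cells, the core was at 574.2 CPM in KO macrophages (95% exact Poisson interval 563.1 to 585.4), against 904.5 CPM in Het macrophages, a log2 ratio of -0.70 relative to WT and -0.66 relative to Het. Plate 056s had the highest median depth per cell and gave 33892157 of the 39050977 counts summed for Het macrophages. The summed Het level of macrophages is thus mostly that of 1 plate. Leaving out plate 056s gave a ratio of -0.18 over Het. Leaving out plate 059s gave -0.54 over WT. The interval covers counting error only. The 17 regulatory particle genes had 1544 and 1353 CPM in KO pools and between 1476 and 1931 CPM in control pools, which overlap, with -0.23 over WT and 0.01 over Het on the log2 scale.

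All 12 measured core genes were lower in KO macrophages than in both WT and Het macrophages in the summed counts, as were 37.8% of all 5483 measured genes. Of the 17 regulatory particle genes 7 were lower than both, and Psmd3 was higher than both, as were 28.2% of all measured genes. The WT and Het ratios share the KO cells and so are not independent of each other. Without plate 056s, 8 of the 12 core genes (66.7%) and 10 of the 17 regulatory particle genes (58.8%) were below both, and with plates 524s, 529s and 530s alone 7 (58.3%) and 10 (58.8%), against 32.2% and 43.6% of all measured genes. Between KO and Het cells of plate 524s, Psma2, Psma5, Psma6, Psmb1, Psmb2 and Psmb7 were higher in KO macrophages. Their log2 ratios ran from 0.08 (Psmb2) to 1.30 (Psmb7). Psma1, Psma3, Psma4, Psma7, Psmb4 and Psmb6 were lower, with ratios from -1.97 (Psma7) to -0.23 (Psmb6). The core pools no longer lay apart with Rn18s in the total, with TMM factors, without cells under 50000 counts or without the top cell of each gene and pool. They also overlapped when the core was split by shared sequence: the 8 genes with up to 20% shared had 468.4 and 457.2 CPM in the KO pools and 419.3 to 961.1 CPM in control pools, and the other 6 had 107.2 and 112.9 CPM in the KO pools and 94.3 to 192.4 CPM in control pools.

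The alpha ring showed the larger part of this. Its 7 genes, all measured, summed to 241.5 and 245.1 CPM in the KO pools, 449.0, 359.0 and 303.9 CPM in the Het pools and 587.6, 319.0 and 367.5 CPM in the WT pools of macrophages. The KO pools lay below every control pool, and the log2 ratio was -0.84 against either control. It shrank to -0.45 over Het with plate 056s left out, and to -0.58 over WT with plate 059s left out. Its pools overlapped with Rn18s in the total and with the mean of the cells' own CPM. In microglia the alpha ring had 239.5 and 429.2 CPM in KO pools and 286.7 to 470.2 CPM in control pools, so the KO pool of plate 060s was the lowest and that of plate 524s was near the top.

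**Figure D5:**
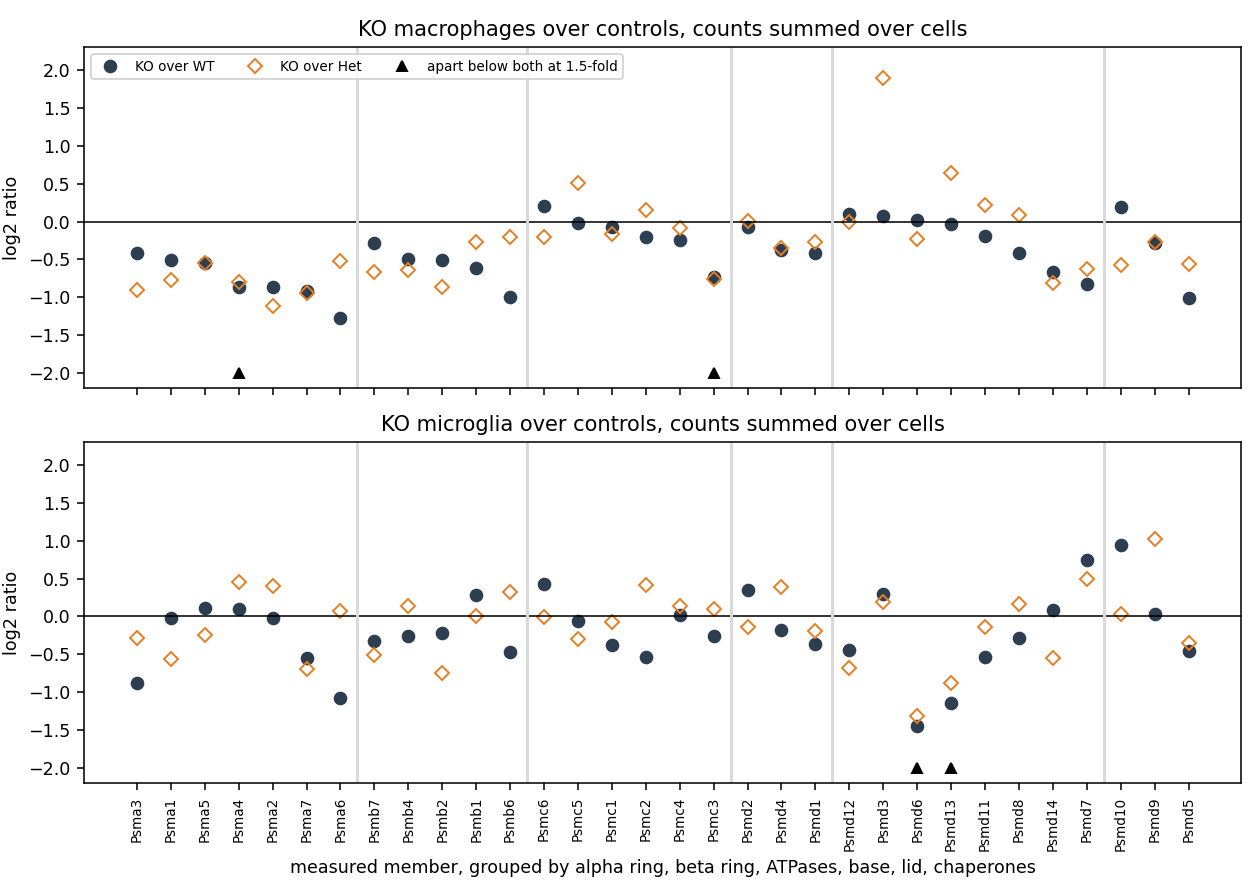
Log2 ratio of KO over WT (filled circles) and KO over Het (open diamonds) from counts summed over cells, for the 32 measured genes in macrophages (top) and microglia (bottom), grouped by particle. Triangles mark genes whose KO pools lie apart below all control pools at 1.5-fold: Psma4 and Psmc3 in macrophages, Psmd6 and Psmd13 in microglia.

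A gene was called changed in KO cells where its summed level lay at least 1.5-fold beyond both WT and Het and no KO pool overlapped a control pool. In macrophages 0 of 32 subunit genes were higher and 2 were lower, while 0.839% of all measured genes were higher and 1.64% lower. Psma4, an alpha subunit, had 31.0 and 20.8 CPM in the KO pools, 51.9, 34.8 and 43.5 CPM in the Het pools and 75.9, 32.9 and 42.3 CPM in the WT pools. It fell by 0.86 on the log2 scale against WT and by 0.80 against Het. The higher KO pool was close to the lowest control pool, WT cells of plate 529s, and 31.5% of the transcript's stretches are shared with other genes, including the overlapping AY074887.

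Psmc3, an ATPase of the base, had 121 and 129 CPM in the KO pools, 209, 208 and 191 CPM in the Het pools and 246, 160 and 189 CPM in the WT pools. It fell by 0.73 on the log2 scale against WT and by 0.76 against Het, and by 0.69 between KO and Het cells of the same plate 524s. Psma1 had no overlap either, with 69.1 and 54.5 CPM in KO pools and 69.3 to 131 CPM in control pools, but its log2 ratio of -0.50 over WT was short of 1.5-fold. Without the fold limit 3 subunit genes thus lay below and 0 above, against 3.19% and 2.66% of all measured genes. Psmc3 remained called without any 1 plate, and Psma4 was not called without plate 056s or without plate 059s. With plates 524s, 529s and 530s only, Psma4 was called and Psmc3 was not. The exons of Psmc3 overlap those of Slc39a13 on the other strand, which share 6.84% of its stretches. The number of lower genes was 1 without plate 056s and 1 without plate 059s, against 2.35% and 1.69% of all measured genes. It was 10 without plate 060s, against 13.1%, and 5 without plate 524s, against 4.92%. Without plate 529s it was 5, against 3.99%, and without plate 530s it was 4, against 2.23%. Neither call held when the top cell of each gene and pool was left out.

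Other genes had large ratios without a call. The alpha subunit Psma6 had a log2 ratio of -1.28 over WT, with 31.2 and 65.1 CPM in KO pools, 60.5, 50.2 and 35.0 CPM in Het pools and 127, 97.8 and 82.9 CPM in WT pools. Both KO and Het pools were below the WT pools. Psmb6 followed the same order, with 68.9 and 40.6 CPM in KO pools, 73.1, 47.8 and 62.1 CPM in Het pools and 128, 103 and 125 CPM in WT pools, which gives -0.999 on the log2 scale against WT and -0.20 against Het. The chaperone Psmd5 had a ratio of -1.01 over WT, with 40.2 and 14.1 CPM in KO pools and 5.26 to 75.6 CPM in control pools.

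Over Het, the alpha subunit Psma2 had the lowest ratio, -1.11, and the lid subunit Psmd3 the highest, 1.89. Psmd3 had 190 and 188 CPM in KO pools, 36.1, 109 and 176 CPM in Het pools and 211, 222 and 156 CPM in WT pools, so that the low Het pool of plate 056s set the ratio. The catalytic Psmb7 had 24.9 and 17.4 CPM in KO pools, 39.6, 6.48 and 30.5 CPM in Het pools and 25.3, 30.1 and 29.5 CPM in WT pools, which overlap. Psmb5 had 13.9 and 17.1 CPM in KO pools, 13.7, 10.5 and 26.8 CPM in Het pools and 15.3, 14.1 and 13.9 CPM in WT pools, also overlapping.

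The median log2 ratio of the 32 genes in KO macrophages was -0.41 over WT, against -0.06 for all measured genes, and -0.31 over Het, against -0.07. Without plate 056s the median over Het was -0.07. Of the 32 genes 5 were above 0 over WT. Between KO and Het cells of plate 524s, the one plate with both, the median was -0.22, against -0.04 for all measured genes, and 15 of 32 were above 0. The highest ratio over WT was 0.20, for Psmc6. Other measures also varied over the macrophage pools. The summed oligodendrocyte markers were at 486 to 527 CPM in KO pools, against 603 to 1645 CPM in control pools. Median depth per cell was 116105 and 171764 counts in the KO pools. In control pools it ran from 109021 counts (Het, plate 529s) to 891311 counts (Het, plate 056s), a range that holds both KO pools. The 2 pools with the highest core levels were Het cells of plate 056s and WT cells of plate 059s, the latter with 361651 counts. The summed immediate early genes ran from 261 to 810 CPM in KO pools and from 573 to 4280 CPM in control pools, which overlap. The part of these measures in the result was not tested.

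In KO microglia the core levels of the 2 pools lay far apart. The core had 507.3 and 851.2 CPM in the KO pools of plates 060s and 524s, 850.5, 567.0 and 752.5 CPM in the Het pools and 888.0, 714.0 and 747.8 CPM in the WT pools, so the KO pools were the lowest and among the highest. Summed over cells, the log2 ratio was -0.26 against WT and -0.18 against Het, but -0.73 and -0.70 with plate 524s left out, and 0.02 and 0.10 with plate 060s left out. The regulatory particle had 1600 and 1560 CPM in KO pools and 1625 to 1863 CPM in control pools, so that both KO pools lay below every control pool. They overlapped with Rn18s in the total, at 806.8 and 936.3 CPM in KO pools and 723.0 to 1360 CPM in control pools, and without the top cell of each gene and pool, at 1376 and 1422 CPM in KO pools and 1314 to 1641 CPM in control pools. Of the 12 measured core genes 5 were below both WT and Het, and 2 (Psma4 and Psmb1) above both, against 34% and 31.4% of all 6796 measured genes. The 5 became 10 without plate 524s, where 34.4% of all measured genes were below both. They became 3 without plate 059s and 3 without plate 060s, against 25.6% and 41.1%. Whether KO macrophages and KO microglia differ was not tested, as the design holds 1 sample of each.

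In KO microglia 0 of 32 genes were higher and 2 lower, both of the lid, while 1.25% of all measured genes were higher and 0.971% lower. Psmd6 had 28.4 and 38.8 CPM in the KO pools, 105, 48.5 and 54.6 CPM in the Het pools and 113, 66.0 and 48.8 CPM in the WT pools. It fell by 1.45 on the log2 scale against WT and by 1.31 against Het, and had counts in 35.9% of KO, 72.4% of Het and 58.2% of WT microglia. Psmd13 had 49.1 and 47.2 CPM in the KO pools, 106, 50.8 and 64.4 CPM in the Het pools and 120, 77.3 and 81.6 CPM in the WT pools, and fell by 1.15 against WT and by 0.88 against Het. Its exons overlap those of Sirt3 on the other strand, and the reads of the 2 genes cannot be told apart without strand. Psmd6 remained called without any 1 plate, while Psmd13 was not called without plate 056s. Leaving out plate 060s or 524s gave 3 lower genes each, against 6.00% and 4.57% of all measured genes. Neither call held without the top cell of each gene and pool. Without the fold limit the counts stayed at 0 and 2, against 2.77% and 1.43%. On plate 524s the KO over Het ratios were only -0.31 for Psmd6 and -0.11 for Psmd13.

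The largest other ratios over WT in KO microglia were -1.08 for Psma6 and 0.95 for Psmd10. Psma6 had 44.6 and 44.2 CPM in KO pools and 32.1 to 123 CPM in control pools, which overlap. Psmd10 had 29.5 and 22.9 CPM in KO pools and 6.10 to 33.2 CPM in control pools, likewise overlapping. Over Het the highest ratio was 1.02, for Psmd9. The median of the 32 genes was -0.24 over WT, against -0.04 for all measured genes, and -0.04 over Het, against 0.01. Leaving out plate 059s or plate 060s brought the median over WT to -0.03.

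Genes that work with the proteasome gave few calls. Of the 3 immunoproteasome genes, all measured, 0 were called between cell types or in KO cells, and Psmb8 had 154 and 140 CPM in KO macrophage pools against 164 to 225 CPM in control pools, with no overlap but under 1.5-fold. Of the 4 activators that open the core by another route, the interferon-induced Psme2 likewise lay below, with 25.1 and 20.4 CPM in KO pools and 27.2 to 42.2 CPM in control pools of macrophages. Every KO macrophage pool lay below every control pool in 3.19% of all measured genes. Of the 5 chaperones of core assembly 1 was measured in macrophages and 2 in microglia, and 0 were called. Pomp, which helps assemble the core, had 47.3 and 76.8 CPM in KO macrophage pools and 62.6 to 106.8 CPM in control pools, which overlap, with ratios of -0.57 against WT and -0.91 against Het on the log2 scale. Of 3 measured ubiquitin genes the polyubiquitin gene Ubb was called lower in KO macrophages, with 129.7 and 162.8 CPM in KO pools and 163.2 to 265.5 CPM in control pools, at -0.73 on the log2 scale against WT and -0.84 against Het. The highest KO pool and the lowest control pool of Ubb were less than 1 CPM apart. By the same rule 1.64% of all measured genes were called lower. None of the 8 measured partners of the regulatory particle, such as the deubiquitinase Usp14, or of the measured substrate shuttles was called between cell types or in KO cells. Among all measured genes 3.96% were called higher and 5.95% lower in macrophages than in microglia. In KO macrophages 0.839% were called higher and 1.64% lower, and in KO microglia 1.25% and 0.971%.

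The interferon response genes, which share inducers with the immunoproteasome, summed to 861 and 2403 CPM in KO macrophage pools and 484 to 2657 CPM in control pools, so they overlapped. The median log2 ratio of their 6 measured genes over WT was 1.46 in KO macrophages, while the 3 immunoproteasome genes had a median of -0.29. In KO microglia these medians were -0.07 over 5 measured genes and -0.02.

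Plates 056s, 059s and 060s differed from plates 524s, 529s and 530s in the share of Rn18s, so the genes were also compared between these sets of plates. In macrophages the median log2 ratio was 0.35, against 0.22 for all measured genes, and 0 of 32 genes were called, against 3.87% higher and 0.62% lower among all. In microglia the median was -0.02, against 0.16, and only Psmd1, a scaffold of the base, was called higher, with a log2 ratio of 0.82, against 3.41% higher and 0.824% lower among all. KO pools come 1 from each set.

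Subunit genes varied somewhat less over pools than other genes. The median SD of log2 levels over the 8 pools was 0.53 for the 32 genes in macrophages and 0.47 in microglia, against 0.64 and 0.61 for all measured genes and 0.68 and 0.65 for measured genes within the same range of levels. They did not rise and fall tightly together: the median correlation between pairs of subunit genes over the 8 pools was 0.18 in macrophages and 0.03 in microglia, against 0.03 and 0.02 for all measured genes. With Rn18s in the total these became 0.61 and 0.47, against 0.36 and 0.32 for all genes, since 1 shared divisor then moves every gene of a pool. The pools share plates and these values describe 8 points each.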

How the data were processed

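Whole-number read counts per gene and cell were used as deposited by the authors. STAR is named in the submitters' processing notes, with no version. The genome build, annotation, counting program, strand setting and treatment of reads that fit several genes are not given in the sources used here. Cells, genotypes and cell types follow the labels, and no cell was filtered out. No doublet caller was run on the singly sorted cells. Counts were summed per genotype, plate and cell type and scaled to CPM without spike-ins and Rn18s, and ratios were taken on log2(CPM + 1).

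The subunit genes, gene lists and rules were chosen with earlier results of these data known. Named in full were Psmb5, Psmb6, Psmb7, called genes, up to 3 of the largest ratios in each direction, and the highest and lowest per kb. Lists cover the immunoproteasome, activators, assembly chaperones, regulatory particle partners, shuttles, ubiquitin, transcription control, interferon response, immediate early genes and cell type markers. Lengths, overlaps and shared 50-base stretches come from GENCODE M21, whose build may differ from the authors', and all 36 genes matched. No test was run, as no label names an animal. The calling rules were run on simulated counts without plate effects and with larger changes than those of the called subunit genes. That run does not show how often the rules err on these data. Alternatives used factors from edgeR 4.0.16 and DESeq2 1.42.0 (R 4.3.3), with Python 3.11.15, pandas 2.3.3, numpy 2.4.6, scipy 1.17.1 and matplotlib 3.10.9 for the rest. The pools hold between 2470852 and 35356083 counts, and intervals cover counting error only. Counting error was not compared with the spread between pools.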

Additional observations from a re-analysis of the deposited data

Results flagged for a closer look

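Among 44 sets of 8 pools or pairs examined, 3 held 1 value far from the other 7, where chance marks about 1 in 20 sets. Psmb5 had 26.8 CPM in Het macrophages of plate 529s, and the next pool had 17.1 CPM. The log2 ratio of Psmb7 in macrophages over microglia was -1.42 in Het cells of plate 524s, and the next lowest was -0.31. The log2 ratio of Psma4 in macrophages over microglia was -1.57 in KO cells of plate 524s, and the next lowest was 0.05.

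A further 14 cells carried the label 7 in place of a cell type name and entered no comparison. Their subunit genes summed to 2340 CPM, from 1786 of 763324 counts, within the range of the macrophage and microglia pools.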

How the results depend on the processing

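The counts of called subunit genes are small. Most alternatives left them as they were, except for the genes lower in KO macrophages, where 11 of 18 moved the count. A higher fold limit can only lower a count, and dropping the limit can only raise it. Why counts moved elsewhere, also where fewer pools entered, was not tested. Higher in macrophages than microglia were 0, but 1 with DESeq2 size factors (Psmd9), against 3.94% of all measured genes. With 1 plate left out they were 0 to 1, against 4.33% to 6.27%. Lower were 0, but 1 without the top cell of each gene and pool, against 6.86%. In KO macrophages 1 was higher (Psmb3) with plates 524s, 529s and 530s only, against 9.63% of all measured genes. Lower in KO macrophages were 2, but 1 with Rn18s in the total and 1 with the mean of the cells' own CPM, against 1.32% and 1.34%. They were 0 without the top cell and 0 at a 2-fold limit, against 0.697% and 0.62%. They were 5 with plates 524s, 529s and 530s only, against 13.0%, and 1 to 10 with 1 plate left out, against 1.69% to 13.1%. In KO microglia higher were 0, but 1 with a floor of 5 CPM (Psma8) and 2 (Psma2 and Psma4) with those 3 plates only, against 1.83% and 8.12%. Lower in KO microglia were 2, but 1 with Rn18s in the total and 1 with the cells' own CPM, against 0.589% and 1.05%. They were 0 without the top cell and 1 at 2-fold, against 0.351% and 0.471%. They were 0 with the 3 plates only, against 6.95%, and 1 to 3 with 1 plate left out, against 1.20% to 6.00%.

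With Rn18s in the total, the median log2 ratio of the subunit genes was -0.69 for KO over Het macrophages, where the median of all measured genes became -0.50. It was -0.42 over WT and -0.28 over Het for KO microglia, where all genes became -0.20 in each. It was 0.93 in macrophages and 0.49 in microglia for plates 056s, 059s and 060s over 524s, 529s and 530s. The median of KO over WT microglia was -0.032 with the last 3 plates only, and -0.35 to -0.028 with 1 plate left out. In counts added after seeing the data, core genes below both controls in KO macrophages were 12, but 7 with the 3 plates only, against 43.6% of all measured genes. Regulatory particle genes below both there were 7, but 11 with Rn18s in the total and 4 without the top cell, against 45.0% and 33.6%. Core genes below both in KO microglia were 5. They were 8 with Rn18s in the total, against 48.9%, and 8 with the cells' own CPM, against 33.1%. They were 3 with the 3 plates only, against 32.6%, and 3 to 10 with 1 plate left out, against 25.6% to 41.1%. Regulatory particle genes below both were 7, but 11 with Rn18s in the total and 13 with the cells' own CPM, against the same 48.9% and 33.1%. No limit from depth was compared with that from the number of pools.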

Other observations

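In the 14 cells labelled 7, a cell had counts for between 3 and 27 of the 36 subunit genes, with a median of 14.5. The median summed level per cell was 2261 CPM, with a range from 840 to 4439 CPM. By genotype the sums were 2539 CPM in 6 KO cells, 2408 CPM in 4 Het cells and 1752 CPM in 4 WT cells. The same cells held 28790 CPM of macrophage markers, 13880 CPM of microglia markers and 4157 CPM of oligodendrocyte markers.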
